A study of Mus musculus with 4 samples.

Results

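Pim1, Pim2 and Pim3, the 3 genes of the PIM kinase family, were followed through RNA-seq libraries of mouse embryonic stem cells (ESCs) in which Pim3 had been cut. They are 3 of the 55418 genes in the deposited count table, chosen by their symbols, and all 3 were among the 18444 genes with enough counts to be tested. The series holds 2 libraries of wild type (WT) ESCs and 2 of Pim3-/- ESCs, all from the mouse line E14, a long-established male line of 129 background, grown on gelatin in serum with the cytokine LIF. The Pim3-/- cells are 2 clones made with CRISPR/Cas9 and a pair of guide RNAs against exons 4 and 6 of Pim3, with no rescue line. The segment between the guide sites is missing from both alleles of a clone and from a single allele of the other, whose remaining allele carries small changes at the guide sites. Which replicate number is which clone is not stated in the sources used here. A difference between the groups therefore cannot be told apart from a difference between clones and their parent culture, and the spread between replicates is that of 2 cultures or clones.

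PIM kinases are serine/threonine kinases that need no activating phosphorylation. Their amount in a cell, set by transcription, translation and protein stability, is taken to set their activity. Pim1 was first found as a site where a leukaemia virus inserts in mouse lymphomas, and Pim1 and Pim3 are known target genes of LIF and STAT3 in ESCs. The 3 proteins share many substrates, and in mouse lymphomas another member can stand in for Pim1. The counts here answer 2 questions, namely how the family's RNA is divided among its members in WT ESCs and whether Pim1 or Pim2 differs in Pim3-/- ESCs.

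The 3 genes have the same layout of 6 exons (annotation GENCODE vM21, assembly GRCm38). Pim1 (ENSMUSG00000024014.8) lies at chr17:29490753-29496112, Pim2 (ENSMUSG00000031155.16) at chrX:7878262-7883432 and Pim3 (ENSMUSG00000035828.11) at chr15:88862186-88865726, all on the plus strand. Exon 5 is wholly coding and is 177 bases long in each gene. In Pim3 it is the exon that lies entirely between the 2 exons with guide RNAs. Its sequences are shown because the exon lies between the guide sites and shows how alike the paralogs are, with capitals for the bases that are identical in all 3 genes. They were read 5′ to 3′ on the plus strand from GENCODE's transcripts, at chr17:29493722-29493898 for Pim1, chrX:7882073-7882249 for Pim2 and chr15:88864316-88864492 for Pim3.

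Pim1 exon 5: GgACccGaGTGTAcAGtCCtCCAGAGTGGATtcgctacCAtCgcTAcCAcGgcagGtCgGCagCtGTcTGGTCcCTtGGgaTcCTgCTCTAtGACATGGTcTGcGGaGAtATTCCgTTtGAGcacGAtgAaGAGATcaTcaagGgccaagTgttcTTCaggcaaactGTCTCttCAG
Pim2 exon 5: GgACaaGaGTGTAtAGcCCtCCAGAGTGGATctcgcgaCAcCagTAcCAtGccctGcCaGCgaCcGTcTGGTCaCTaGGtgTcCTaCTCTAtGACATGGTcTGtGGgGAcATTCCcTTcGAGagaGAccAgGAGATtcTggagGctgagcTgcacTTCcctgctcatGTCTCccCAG
Pim3 exon 5: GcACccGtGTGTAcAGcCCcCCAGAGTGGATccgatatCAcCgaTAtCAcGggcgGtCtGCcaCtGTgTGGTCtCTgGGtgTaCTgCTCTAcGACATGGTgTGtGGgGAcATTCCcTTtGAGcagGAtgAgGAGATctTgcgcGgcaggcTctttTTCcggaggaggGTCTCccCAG

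Of the 177 positions, 102 (57.6%) were the same in all 3 genes. Pim1 and Pim3 were the most alike pair, at 72.9% of positions, against 67.8% for Pim2 and Pim3 and 66.1% for Pim1 and Pim2. The order was the same over the aligned coding sequences, with 74.5%, 69.6% and 69.0%. The longest run of identical bases between any pair of transcripts was 24 bases, shared by Pim1 and Pim3. The paralogs are therefore distinct at the nucleotide level over stretches longer than that, although how reads with several matches were counted is not stated.

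**Figure D1:**
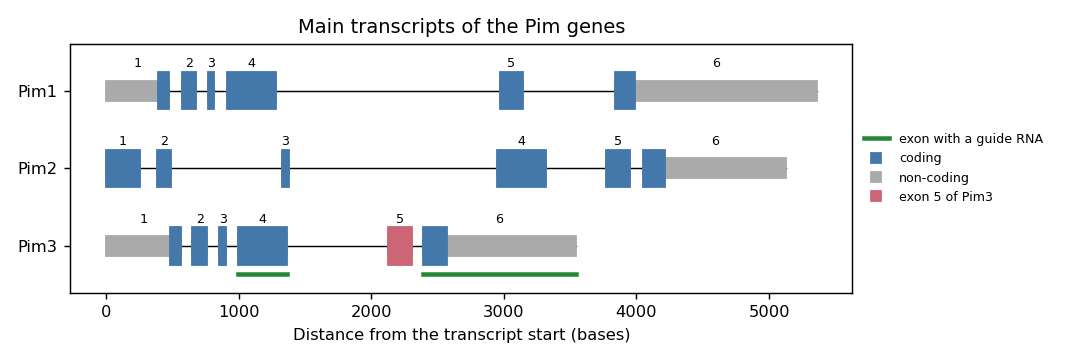
Main transcripts of the 3 Pim genes drawn to scale, with distance from the transcript start in bases on the x axis. Tall boxes are coding and low boxes non-coding parts of the numbered exons, green lines mark exons 4 and 6 of Pim3, against which the guide RNAs were made, and exon 5 between them makes up 7.29% of the 2427 bases of the Pim3 transcript.

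Each library held 22029427 to 25668307 counts. Levels are given as CPM, counts brought to a common library size, after TMM scaling, which corrects library totals for differences in composition. The TMM factors were 0.828 and 0.883 for WT and 1.168 and 1.172 for Pim3-/-, so the scaling bears on every fold change: the median log2 fold change of all tested genes was 0.07 with it and 0.52 with library totals. Fold changes were tested by quasi-likelihood in edgeR, with p-values adjusted after Benjamini and Hochberg over all 18444 genes, and a gene is called at an adjusted p under 0.05. By that rule 33.8% of tested genes were called, 17.6% higher and 16.2% lower in Pim3-/- ESCs. Of 12 ESC markers, all detected in each group, 2 were called higher, Klf4 and Sall4, and 4 lower, Pou5f1, Dppa5a, Utf1 and Nanog, with a median log2 fold change of -0.04. Their summed level was 11202 and 10159 CPM in WT and 7455 and 7199 CPM in Pim3-/-. The calls of Dppa5a, Utf1 and Nanog were lost with library totals. The study itself reported the other direction for Nanog in its Pim3-/- ESCs, raised by qPCR and by Western blot, and no disruption of Oct4 (Pou5f1) or Sox2. Those assays were not analysed here, and the difference from these libraries was not tested.

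Pim3, the targeted gene, kept its RNA in the libraries labelled Pim3-/-. It had 4392 and 4953 counts in WT and 4970 and 4804 counts in Pim3-/-, which is 229 and 219 CPM against 186 and 186 CPM. Both Pim3-/- libraries were below both WT libraries, a pattern that 34.2% of tested genes showed. The means were 224 CPM ± 7.50 (SD, n = 2) and 186 CPM ± 0.100 (SD, n = 2). The log2 fold change was -0.27 (standard error 0.17, 95% interval -0.66 to 0.13), with a Benjamini-Hochberg adjusted p of 0.251 in edgeR, and under library totals the sign turned, to 0.19. Loss of exon 5 alone from every transcript would change the log2 count by -0.11, inside that interval, and the allele with small changes keeps the exon. The missing segment also takes in the parts of exons 4 and 6 between the guide sites. Its loss would therefore lower the count by more than that value, by an amount that was not computed. A count over the whole gene thus does not test the knockout label. The study checked its clones by Western blot of PIM3 protein, DNA sequencing and qPCR, which were not analysed here, nor were counts per exon.

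Pim1 rose in Pim3-/- ESCs, with an adjusted p close to the threshold. It had 1776 and 2156 counts in WT and 3248 and 4146 counts in Pim3-/-, or 92.7 and 95.2 CPM against 122 and 161 CPM. Both Pim3-/- libraries were above both WT libraries, as were those of 38.3% of tested genes. The lower Pim3-/- library stood 1.28-fold above the higher WT library, and the 2 Pim3-/- libraries stood 1.29-fold and 1.71-fold above the WT mean, so they differed from each other more than the WT libraries did. The means were 94.0 CPM ± 1.75 and 141 CPM ± 27.7 (SD, n = 2 each). The log2 fold change was 0.59 (standard error 0.19, 95% interval 0.14 to 1.03), a 1.50-fold rise with an interval of 1.10-fold to 2.05-fold, at a Benjamini-Hochberg adjusted p of 0.0488 in edgeR. Pim1 ranked 6152 by p-value among the 6233 genes called, where 17.6% of all tested genes were called higher.

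The Pim1 call did not hold in all settings. In the 10 alternatives the log2 fold change stayed above 0, between 0.37 and 1.04, and 5 of them kept the call. It was lost with the size factors of DESeq2 (adjusted p of 0.0617), without a filter on low counts (0.0749), in the Wald test of DESeq2 (0.0552) and, in edgeR's quasi-likelihood test, without WT replicate 1 (0.314) or without WT replicate 2 (0.273). With a WT library left out, its spread was taken from the Pim3-/- pair, which is the wider one. The 5 alternatives that kept the call include the fits without a Pim3-/- library, whose spread was taken from the closer WT pair.

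Pim2, which lies on the X chromosome, was the lowest of the 3 and was not called. It had 292 and 336 counts in WT and 581 and 479 counts in Pim3-/-, or 15.2 and 14.8 CPM against 21.8 and 18.6 CPM. The groups did not overlap, with both Pim3-/- libraries above both WT libraries, again as in 38.3% of tested genes. The means were 15.0 CPM ± 0.289 and 20.2 CPM ± 2.25 (SD, n = 2 each). The log2 fold change was 0.42 (standard error 0.19), with a Benjamini-Hochberg adjusted p of 0.124 in edgeR. The 95% interval ran from -0.03 to 0.87, that is from 0.983-fold to 1.83-fold, so these libraries allow no change as well as a rise larger than the 1.50-fold of Pim1. Pim2 was called with library totals (log2 fold change of 0.88, adjusted p of 0.0122 in edgeR), where 6606 of the 18444 tested genes were called higher. Without Pim3-/- replicate 2 the log2 fold change of Pim2 was 0.53, with a spread taken from the WT pair alone.

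**Figure D2:**
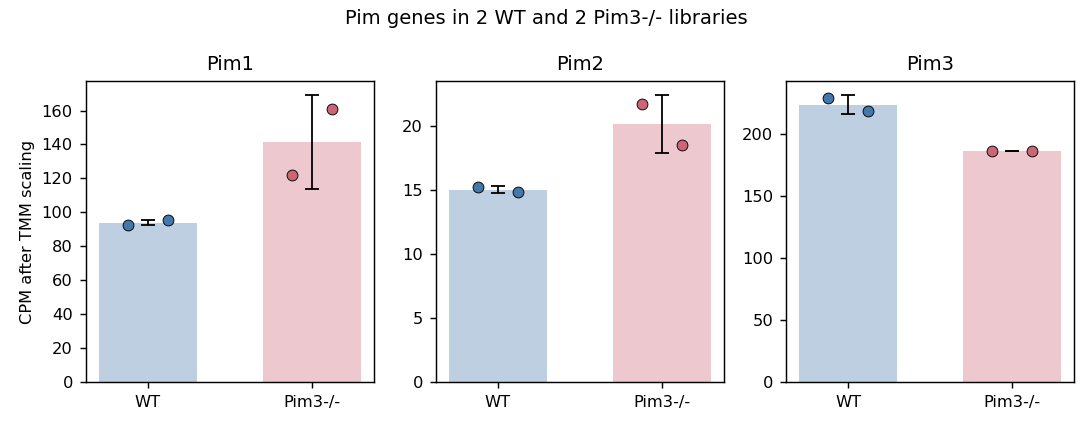
CPM after TMM scaling of Pim1, Pim2 and Pim3 in 2 WT and 2 Pim3-/- libraries, on y axes that start at 0 and differ between the genes. Points are libraries, bars group means and error bars SDs of 2 libraries. In Pim1 and Pim2 both Pim3-/- points sit above both WT points, and in Pim3 both sit below.

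**Figure D3:**
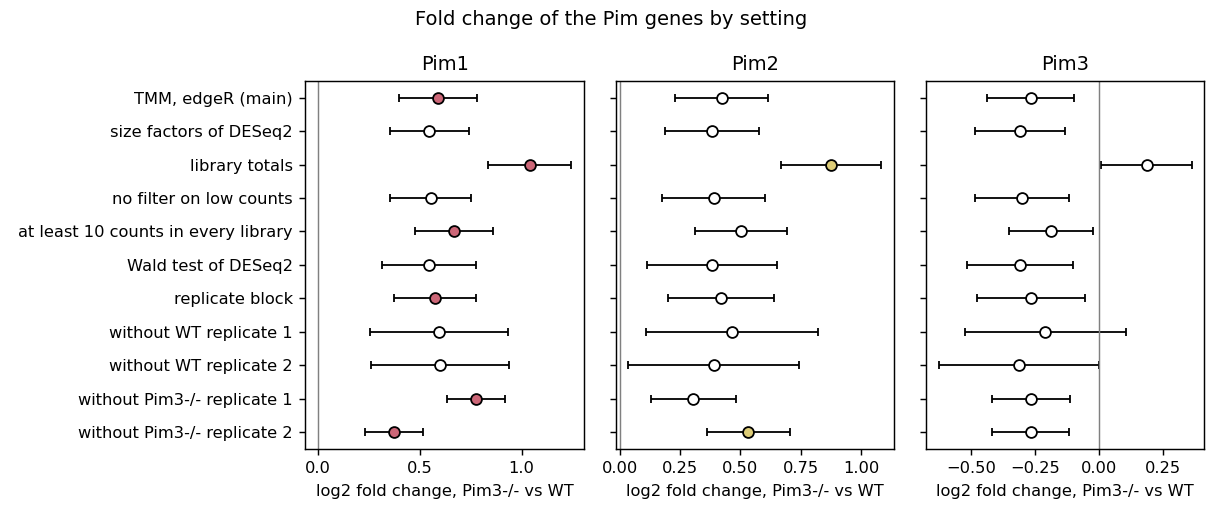
log2 fold change of each Pim gene between Pim3-/- and WT on the x axis, with its standard error as bar, under the test as reported (top) and 10 alternatives. Filled points have an adjusted p under 0.05. Pim1 ran from 0.37 to 1.04 and Pim2 from 0.31 to 0.88, all above 0, while Pim3 ran from -0.31 to 0.19, above 0 only with library totals.

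To compare the 3 genes with each other, CPM were divided by the length of their annotated exons, which is 3362 bases for Pim1, 2795 for Pim2 and 2427 for Pim3. In WT ESCs Pim3 had a mean level of 92.3 CPM per kb, Pim1 28.0 and Pim2 5.38. The order Pim3, Pim1, Pim2 held in all 4 libraries, with no overlap between any of the genes. In Pim3-/- ESCs the mean levels were 76.8, 42.0 and 7.22 CPM per kb. On the same scale, WT libraries had 999 CPM per kb of Pou5f1 and 419 of Nanog, transcription factors that maintain pluripotency, and 134 of Sox2, their partner. Among all tested genes, the WT level per kb of Pim3 stood at percentile 95.5, that of Pim1 at 86.7 and that of Pim2 at 60.1.

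Shares and ratios within a library do not depend on how libraries are scaled to each other. Pim3 supplied 68.0% and 66.5% of the family's counts in WT, and 56.5% and 50.9% in Pim3-/-. Pim1 supplied 27.5% and 29.0% in WT, and 36.9% and 44.0% in Pim3-/-. Pim2 supplied 4.52% and 4.51% in WT, and 6.60% and 5.08% in Pim3-/-. For each gene the groups did not overlap, and Pim3 remained the largest share in every library. The shares of a library are parts of a whole and are not separate results, since a lower Pim3 share means a higher rest. For comparison, 38.3% of single tested genes were higher in CPM in both Pim3-/- libraries than in both WT libraries, and 34.2% were lower. A like value for shares is not given. The exact binomial 95% interval of the Pim3 share ended at 57.5% and 52.0% in the 2 Pim3-/- libraries and started at 66.8% and 65.4% in the 2 WT libraries, covering counting error only. Per kb of exon, the Pim3 share was 73.5% ± 0.896 in WT and 61.0% ± 3.58 in Pim3-/- (SD, n = 2 each), the Pim1 share 22.3% ± 0.888 and 33.2% ± 4.56, and the Pim2 share 4.28% ± 0.00875 and 5.76% ± 0.981. Pim3 was divided by its full 2427 bases in Pim3-/- too, although both clones have alleles without the segment between the guide sites. The part of that missing segment in the shares, in the ratios to Pim3 and in the summed level below was not computed.

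The ratio of Pim1 to Pim3 counts was 0.404 and 0.435 in WT, and 0.654 and 0.863 in Pim3-/- ESCs. Its mean log2 was higher in Pim3-/- by 0.84, a 1.79-fold difference, and it kept a difference of 0.64 to 1.04 with any single library left out. The ratio of Pim2 to Pim3 was 0.0665 and 0.0678 in WT and 0.117 and 0.0997 in Pim3-/-, a log2 difference of 0.68. Both ratios separated the groups without overlap. The ratio of Pim2 to Pim1 did not, at 0.164 and 0.156 in WT and 0.179 and 0.116 in Pim3-/-. The ratios to Pim3 share that denominator and are not separate results. How many gene pairs separate in this way was not computed. Of single tested genes, 38.3% were higher and 34.2% lower in both Pim3-/- libraries than in both WT libraries. With 2 libraries a group an exact two-sided permutation test cannot go below 0.333, so none is given.

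Summed over the 3 genes, the level was 128 and 124 CPM per kb in WT and 121 and 131 CPM per kb in Pim3-/-, so the groups overlapped. The means were 126 ± 2.67 and 126 ± 7.47 CPM per kb (SD, n = 2 each). This sum depends on the scaling: relative to the library totals, without TMM factors, the summed counts were 1.43-fold higher in Pim3-/- ESCs.

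**Figure D4:**
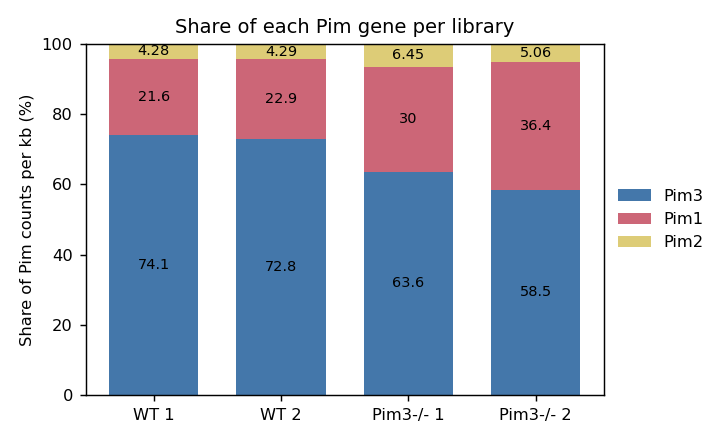
Share of Pim3, Pim1 and Pim2 in the family's counts per kb of exon, in percent, in each of the 4 libraries. The Pim3 share was 74.1% and 72.8% in WT and 63.6% and 58.5% in Pim3-/- ESCs, with the Pim1 share larger in both Pim3-/- libraries than in either WT library.

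The surroundings of the genes were compared next. Gm26885, an antisense gene, runs on the minus strand at chr17:29446919-29491925, across exons 1 to 3 of Pim1 and into exon 4. It had 369 and 540 counts in WT and 931 and 1145 counts in Pim3-/-. Both Pim3-/- libraries were higher, and it rose by 0.88 on the log2 scale (standard error 0.20, Benjamini-Hochberg adjusted p of 0.0159 in edgeR). Whether the counting used the strand is not stated, so reads of Gm26885 and of the first exons of Pim1 cannot be told apart here. Within 100 kb of Pim1, 6 of 9 annotated genes were tested and 3 (50%) were called, all higher, against 17.6% of all tested genes: Gm26885 itself and, at low levels, Gm17657 (log2 fold change of 1.15) and Gm28052 (1.08). Within 100 kb of Pim2, 11 of 14 genes were tested and 3 (27.3%) were called, all lower, against 16.2% of all tested genes: Pqbp1, which encodes a splicing-related protein (-1.30), Eras, a RAS-like gene of ESCs (-1.15), and Timm17b, a part of the mitochondrial import machinery (-0.79, a call lost with library totals). Slc35a2, the next gene along from Pim2, had a log2 fold change of 0.18 that was not called. Within 100 kb of Pim3, none of the 5 tested of 7 annotated genes was called, against 33.8% of all tested genes. Their log2 fold changes ran from -0.32 to 0.39, and 0 had an unadjusted p under 0.05 in edgeR or were called by DESeq2. A search of 300 bases around each annotated RefSeq start (GRCm38.p6, from 250 bases before to 50 after) for the letters TTCNNNGAA, the core to which STAT factors bind and which reads the same on both strands, found none in the 4 windows of the Pim genes, against 8.30% of all 32851 windows.

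The genes with the most similar levels across the 4 libraries were picked by the root mean square difference of log2 CPM. For Pim1 these were Dock6 (0.0428), Zmynd8 (0.0781) and Rcor2 (0.128). For Pim2 they were Lpar1 (0.0453), Tef (0.0572) and Shld2 (0.0577). For Pim3 they were E2f4 (0.0907), Rnf4 (0.0942) and Wdr82 (0.0954). With 4 libraries in 2 groups the measure reflects a like level and a like group difference, and nothing of shared control.

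Upstream of the Pim genes stands the LIF pathway, in which the LIF receptor activates JAK kinases and STAT3. Of its 26 listed genes 25 were tested, 4 (16%) were called higher and 3 (12%) lower, against 17.6% and 16.2% of all tested genes, and the median log2 fold change was 0.07, the same as that of all tested genes. Stat3 itself had 89.8 and 90.4 CPM in WT and 101 and 106 CPM in Pim3-/-, a log2 fold change of 0.20 (Benjamini-Hochberg adjusted p of 0.35 in edgeR). Socs3, a STAT3 target that feeds back on the receptor, had 255 and 260 CPM against 242 and 261 CPM, so the groups overlapped. Lifr, the receptor gene, had a log2 fold change of -0.03 and was not called. Other genes of the list moved in opposite directions. Klf4, a pluripotency factor, rose from 62.9 and 66.6 CPM to 185 and 165 CPM (log2 fold change of 1.44), and Stat5b, a related STAT gene, rose by 0.90. Junb, an AP-1 subunit, fell from 73.8 and 70.5 CPM to 34.9 and 34.9 CPM (-1.05), Socs2, another inhibitor of cytokine signalling, fell from 43.3 and 44.9 CPM to 21.6 and 21.8 CPM (-1.02), and Gbx2 fell by 0.73, a call lost with library totals. The other called genes, Lif and Il6ra, were higher and lay under 5 CPM in WT.

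Downstream, 30 listed genes encode proteins known as PIM substrates, whose RNA need not follow their phosphorylation. All were tested, 8 (26.7%) were called higher and 6 (20%) lower, against 17.6% and 16.2% of all tested genes. Their median log2 fold change was 0.15, against 0.07 for all tested genes. Among the higher were Foxo3, a transcription factor held in check by phosphorylation, from 34.8 and 38.5 CPM to 111 and 103 CPM (1.55), Map3k5, a stress-activated kinase (1.50), and Notch1, a receptor (0.98). The others called higher, Cxcr4, Runx1, Nfatc1, Runx3 and Irs1, lay near the floor in WT, with means of 1.56, 0.759, 0.273, 0.127 and 0.114 CPM. Among the lower were Bad, a cell death gene, from 22.9 and 20.7 CPM to 9.07 and 7.37 CPM (-1.40), Chek1, a checkpoint kinase, from 59.8 and 63.0 CPM to 26.2 and 24.7 CPM (-1.27), Cbx3, a heterochromatin protein (-0.83), and Skp2, a ubiquitin ligase subunit (-0.83). The calls of Cbx3 and Skp2 were lost with library totals. Eif4b, a translation factor and a classical target of PIM kinases, had 621 and 684 CPM against 629 and 816 CPM, so the groups overlapped.

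Kinases that recognise similar basic motifs, of the AKT, SGK, RSK, S6K and PKA families, were also listed. Of the 15 tested, 1 (6.67%) was called higher and 2 (13.3%) lower, against 17.6% and 16.2% of all tested genes, with a median log2 fold change of 0.10. Sgk1, the most strongly changed of them, fell from 230 and 254 CPM to 80.6 and 112 CPM (log2 fold change of -1.33), Rps6ka6 fell by 0.93 on the log2 scale, a call lost with library totals, and Rps6ka2 rose by 0.85. Akt1 and Akt2 had log2 fold changes of 0.11 and -0.41, and neither was called.

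PIM kinases are reported to restrain the energy sensor AMPK, which its upstream kinase LKB1 (Stk11) activates. In ESCs the study saw AMPK phosphorylation rise in Pim3-/- cells but fall after depletion of Pim1 or Pim2. Of 13 listed subunits and regulators 12 were tested. Of these, 2 (16.7%) were called higher and 0 lower, against 17.6% and 16.2% of all tested genes. The median log2 fold change was -0.13, or 0.32 with library totals. At an unadjusted p under 0.05 in edgeR 3 were higher and 4 lower, and no share of all tested genes is given for that threshold. The Wald test of DESeq2 called 2 higher and 0 lower, and edgeR with the size factors of DESeq2 called 2 higher and 2 lower. Among all tested genes, edgeR with these size factors called 2989 higher and 3186 lower. Prkaa2, one of the genes for the catalytic subunit, rose from 6.74 and 8.08 CPM to 14.7 and 14.7 CPM (0.99), and Prkab2, for a regulatory subunit, rose from 8.46 and 11.3 CPM to 14.8 and 18.9 CPM (0.77). Prkaa1, the more abundant catalytic gene, had 30.9 and 32.9 CPM in WT and 23.5 and 22.9 CPM in Pim3-/- (-0.46, Benjamini-Hochberg adjusted p of 0.0652 in edgeR). Stk11 had 88.9 and 90.0 CPM against 91.6 and 99.5 CPM (0.09) and was not called.

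The stability of PIM proteins depends on the chaperones HSP90 and HSP70 and on the phosphatase PP2A. Of the 12 listed genes, all tested, 0 were called higher and 3 (25%) lower, against 17.6% and 16.2% of all tested genes. At an unadjusted p under 0.05 in edgeR, or by the Wald test of DESeq2, 0 were higher as well. The median log2 fold change was -0.29, or 0.16 with library totals. Hspa8, the constitutive HSP70, fell from 4091 and 3905 CPM to 1522 and 1154 CPM (-1.58). Hsp90aa1, an HSP90 gene, fell by 1.52 on the log2 scale, and Cdc37, the co-chaperone that brings kinases to HSP90, fell from 537 and 491 CPM to 249 and 158 CPM (-1.34). Hsp90ab1, the other HSP90 gene, had a log2 fold change of -0.29 and was not called. The PIM proteins themselves were not measured in these files.

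**Figure D5:**
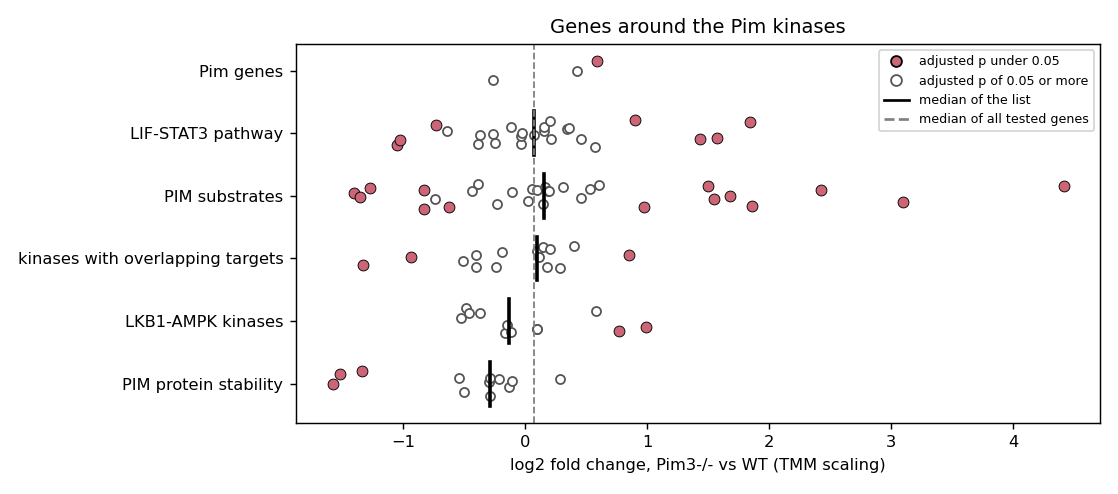
log2 fold change between Pim3-/- and WT, after TMM scaling, of the Pim genes and of 5 lists of genes around them, 1 point a gene. Filled points have an adjusted p under 0.05, black bars mark the median of a list and the dashed line the median of all tested genes, 0.07. The medians of the lists lay between -0.29 and 0.15, and filled points lay on both sides in 3 of the 5 lists.

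Markers of other cell types were checked in the same libraries, where 17.6% of all tested genes were called higher. Of 8 primitive endoderm markers 7 were tested and 6 were called higher, with a summed level of 3.39 and 5.43 CPM in WT and 40.5 and 19.1 CPM in Pim3-/-. This sum was higher in Pim3-/- replicate 1 than in replicate 2, as was Pim2 (21.8 and 18.6 CPM). Pim1 was higher in replicate 2 (122 and 161 CPM), and Pim3 had 186 CPM in both. Of 8 trophoblast markers 6 were tested and 2 were called higher, with sums of 138 and 137 CPM against 109 and 138 CPM, and Cdx2 and Elf5 had too few counts to be tested. Of 8 blood markers 4 were tested and 2 were called higher, Kit and Cd34, with sums of 87.8 and 96.8 CPM against 145 and 169 CPM, while Ptprc and Hbb-bt were at 0. Of 8 fibroblast markers 2 were tested and 0 were called, also at an unadjusted p under 0.05 in edgeR or by DESeq2, with sums of 22.7 and 21.6 CPM against 25.6 and 20.5 CPM, and Lum was at 0. Fewer cells with a gene's RNA and less RNA per cell cannot be told apart in such bulk libraries, and the part of these markers' cells in the Pim levels was not tested.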

How the data were processed

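The authors deposited raw counts per gene for 4 libraries, without normalization. The paper's methods name Cutadapt and Hisat2 with mm10 and Ensembl genes, whereas the submitters' processing notes name Trim Galore, STAR, featureCounts and GRCm38, so which of them made the table is open. Strand setting and treatment of reads with several matches are not given in the sources used here. The table of transposable elements was not used.

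Counts were filtered with filterByExpr (10 counts at the least, 15 in total), leaving 18444 of 31418 genes that had any count, scaled by TMM and tested with the quasi-likelihood test of edgeR 4.0.16 in R 4.3.3, with Benjamini-Hochberg adjustment over all tested genes. A gene was called at an adjusted p under 0.05. Prior and residual degrees of freedom were 5.64 and 2. Each library held 22029427 to 25668307 counts, and intervals of shares are exact binomial ones. Replicates differed by more than sampling noise, with a chi-square per gene of 11.6 between the WT libraries and 57.4 between the Pim3-/- libraries, and each was counted as 1 replicate. Exon lengths (99.9% of tested genes had one), coordinates and sequences came from GENCODE vM21. Figures were drawn with matplotlib 3.10.9 in Python 3.11.15.

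Alternatives were the size factors of DESeq2 1.42.0, library totals, the Wald test of DESeq2, no filter, a filter of 10 counts in each library, a replicate block, other lengths for the shares, and leaving out each library. Shares by the length of the main transcript and without each library were added after seeing the data. In the lists, called members were named up to 4 a direction by the size of their fold change, among those with a mean of at least 5 CPM. Stat3, Socs3, Lifr, Eif4b, Akt1, Akt2, Prkaa1, Stk11 and Hsp90ab1 were added for their roles after their values were seen. Further genes named are tested genes within 100 kb of a Pim gene (those called and the nearest ones), and the 3 genes closest in level to each Pim gene. The members and lists were chosen with earlier results of these data known.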

Additional observations from a re-analysis of the deposited data

How the results depend on the processing

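Pim1 kept a log2 fold change above 0 in all 10 alternatives but was no longer called with the size factors of DESeq2 (0.55), without a filter (0.55) and in the Wald test of DESeq2 (0.55). Pim2 was called with library totals (0.88). Pim3 turned from -0.27 to 0.19 with library totals, which move the median of all tested genes by 0.45. With single libraries left out, the fold changes ran from 0.37 to 0.78 for Pim1, from 0.31 to 0.53 for Pim2 and from -0.31 to -0.21 for Pim3. With library totals 6606 of all 18444 tested genes were called higher and 1092 lower, against 3246 and 2987 with TMM. With these totals 11 of 25 LIF-STAT3 genes, 16 of 30 substrates and 5 of 15 kinases with overlapping targets were called higher. So were 4 of 12 LKB1-AMPK genes and 1 of 12 genes of PIM stability. In the same order of lists, 2, 2, 1, 0 and 3 genes were called lower. Without a filter 1 LKB1-AMPK gene was called higher, and with the size factors of DESeq2 2 were called lower.

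Leaving out a WT library ended most calls, since the lone library was assumed to vary like the Pim3-/- pair: 25 genes were called higher and 5 lower without WT replicate 1, and 90 and 105 without WT replicate 2. Over the 4 omissions, calls ran from 25 to 5383 genes higher and from 5 to 5139 lower. They ran from 0 to 7 LIF-STAT3 genes higher and 0 to 7 lower, from 0 to 12 substrates higher and 0 to 9 lower, from 0 to 4 kinases with overlapping targets higher and 0 to 5 lower, from 0 to 3 LKB1-AMPK genes higher and 0 to 4 lower, and from 0 to 9 genes of PIM stability lower.

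By coding length, the shares of Pim1, Pim2 and Pim3 were 29.2%, 3.90% and 66.9% in WT, and Pim1 and Pim3 had 41.7% and 53.2% in Pim3-/-. With no length correction they were 28.2%, 4.52% and 67.3% in WT, and 40.4% for Pim1 and 53.7% for Pim3 in Pim3-/-. By the main transcript they were 25.9%, 5.47% and 68.6% in WT, and 7.14% for Pim2 and 55.3% for Pim3 in Pim3-/-. The log2 differences of the ratios to Pim3 kept their direction in each of their alternatives. Samples of the same number did not deviate together (correlation of 0.0196), so no pairing by number was seen. With 2 libraries a group this cannot decide whether the numbers pair the samples. With a replicate block the fold changes were 0.57, 0.42 and -0.27 for Pim1, Pim2 and Pim3, 3403 genes were called higher and 3272 lower, and no call of a Pim gene changed.

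Counting error was small for Pim3 and Pim1 and larger for Pim2, which rests on 292 to 581 counts a library. The width of the fold change intervals rests on the spread between libraries. With prior and residual degrees of freedom of 5.64 and 2, that spread is drawn more from all tested genes than from the gene's own libraries. No test was made of a single clone.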
